A study of Mus musculus with 6 samples.

Results

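The 35 genes described here encode proteins of autophagy and mitophagy, and their transcripts were measured in mouse oocytes at the germinal vesicle (GV) stage, when the grown egg cell is held in prophase of meiosis with a store of maternal RNA. The genes were picked by symbol from a list of mitophagy receptors, cargo adaptors and core autophagy proteins, and all 35 were found among the 25353 genes of the table. They were kept as 6 mitophagy receptors and regulators (PINK1 and 5 receptors), 4 cargo adaptors and 25 genes of the core machinery. There were 6 libraries of C57BL/6J mice, 3 wild type (WT) without a deletion and 3 knockout (KO), each from 5 oocytes pooled before cDNA synthesis. The series title and design text describe the KO as Mfn2-/-, while the genotype and protocol fields say Mfn1-/-. The design text gives an age of 8 weeks for the mice of both groups, whereas the age field reads P1. The labels name no treatment and no Cre driver, and they do not tie a pool to its own mouse, so p-values measure only the spread between these pools.

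Autophagy encloses cytoplasm in a double membrane, the autophagosome, and delivers it to the lysosome. A kinase complex starts the process, a lipid kinase marks the growing membrane with PI3P, and a ubiquitin-like conjugation system attaches LC3 and GABARAP proteins to it. Mitophagy applies this machinery to mitochondria, chosen either by receptors in the outer mitochondrial membrane or by ubiquitin chains that form downstream of PINK1 and that cargo adaptors read. Mitofusins are the fusion GTPases of that membrane, and oocytes carry a large maternal stock of mitochondria.

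Mfn2 (GRCm38 chromosome 4, 147873599 to 147904704, minus strand) stood at 25.5, 38.1 and 32.3 normalized counts in WT replicates 1 to 3 and at 5.25, 5.28 and 4.50 in the KO replicates. A normalized count is the number of reads of a gene divided by a size factor of its library, so that 1 read is worth 0.899 to 1.11. All KO libraries lay below all WT libraries, with a log2 fold change (KO minus WT, on log2(value + 1), here and below) of -2.44 (SE 0.38, limma adjusted p = 0.00487). Mfn1 (chromosome 3, 32529465 to 32579239, plus strand) stood at 363, 298.5 and 360.1 in WT and 398, 382 and 379 in KO, a log2 fold change of 0.19 (SE 0.13, limma adjusted p = 0.482). The low gene in the KO libraries is therefore the one named in the title, and not the one named in the genotype field. Reads assigned to genes ranged from 6450191 to 7992598 per library, and 3 reads, the limit that a count of 0 allows for counting error only, equal 0.375 to 0.465 CPM (reads scaled to the total of the library). Of the 13 oocyte markers listed, all were measured, and their summed level was 181750 to 210510 normalized counts in WT and 143930 to 184200 in KO. The granulosa list (13 of 13 in the table, of which Foxl2, Amh and Amhr2 had at most 3 reads in every library) summed to 1421, 642 and 771 in WT and 527, 638 and 665 in KO. The theca and stroma list (8 of 11 in the table) summed to 1438, 35.3 and 256 in WT and 14.7, 27.5 and 57.6 in KO, so WT replicate 1 had the highest sum of both lists. Among single markers, limma called Cyp11a1 (log2 fold change -4.17, adjusted p = 0.0135), Lhcgr (-2.84, 0.0317) and Dcn (-2.21, 0.0244) of these lists and the oocyte gene Nlrp5 (-0.80, 0.0458), all lower in KO. The other markers tested in these lists were not called. Of the granulosa markers, Fshr (0.82), Inhbb (1.31), Kitl (0.22), Nr5a2 (0.13) and Amhr2 (0.01) lay above 0. Cyp19a1, Inha, Inhba, Hsd17b1 and Fst lay below it. Of the theca and stroma markers, Hsd3b1 (-2.22) and Pdgfra (-0.01) lay below 0. Of the oocyte markers, Zp1 (-0.61, limma adjusted p = 0.0851), Zp2 (-0.66, 0.0759) and Zp3 (-0.67, 0.0983) lay below 0 without a call. Dppa3 (-0.29), Ooep (-0.27), Oosp1 (-0.03), Kit (-0.04) and Mos (-0.04) were also below 0. Gdf9 (0.11), Bmp15 (0.06), Figla (0.09) and Nobox (0.22) were above it. Dcn, a stromal matrix gene, stood at 53.2, 28.8 and 14.8 in WT and 8.40, 6.34 and 2.70 in KO, without overlap. The summed immune list spanned 379 to 610.3, the endothelial list 169 to 258, and the surface epithelium list 20.1 to 42.1 over the 6 libraries. Most of the immune sum was C1qb, at 364, 430 and 331.5 in WT and 592, 469 and 453 in KO. Lyz2, Cd74, C1qa and Tyrobp were highest in WT replicate 1 and at 0 in every KO library. Csf1r was also highest in WT replicate 1, Cd68 in WT replicate 2 and Adgre1 in WT replicate 3.

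The promoters of these genes are shown because many lysosomal and autophagy genes are known targets of TFEB and its relatives, basic helix-loop-helix factors that bind an E-box with the letters CACGTG. Promoter sequence (250 bases before to 50 after a start, RefSeq, GRCm38.p6) matched 28 of the 35 genes, with 32 promoters in all. Atg12, Atg16l1, Becn1, Bnip3l, Map1lc3a, Pik3c3 and Rb1cc1 were not matched. The letters CACGTG read the same on both strands. They occurred in the promoters of 6 of 28 genes (21.4%), namely Atg3, Atg5, Atg7, Atg14, Bnip3 and Lamp1, and in 8.09% of the 27025 genes with a promoter in the table. Counted by promoter, the shares were 18.8% of 32 and 7.15% of 32851. The longer palindrome TCACGTGA, which contains the former, occurred in Atg3 alone among these genes (3.57%) and in 1.12% of all genes. The promoters of these genes had a median GC content of 59.3%, against 52.7% for all promoters, and that difference was not taken into account in the shares. The 150 bases before the start are printed for Tax1bp1 and Bcl2l13, the genes nearest the threshold below that have an entry, and for 4 genes with the letters, all 5′ to 3′ on the gene's strand with CACGTG in capitals. They lie at chr6:52713579-52713728 (Tax1bp1, plus strand), chr6:120836080-120836229 (Bcl2l13, plus), chr16:45158679-45158828 (Atg3, plus), chr10:44268189-44268338 (Atg5, plus), chr7:138909507-138909656 (Bnip3, minus) and chr8:13159011-13159160 (Lamp1, plus). The start is the promoter's own and can differ from that of the deposited gene. The stretches of Bcl2l13, Atg3 and Bnip3 therefore reach into the gene as deposited.
Tax1bp1: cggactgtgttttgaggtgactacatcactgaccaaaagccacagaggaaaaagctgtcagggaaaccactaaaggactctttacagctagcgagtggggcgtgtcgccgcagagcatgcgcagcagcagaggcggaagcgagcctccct
Bcl2l13: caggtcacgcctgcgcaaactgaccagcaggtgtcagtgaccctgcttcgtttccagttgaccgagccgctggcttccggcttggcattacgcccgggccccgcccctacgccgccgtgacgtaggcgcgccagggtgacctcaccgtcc
Atg3: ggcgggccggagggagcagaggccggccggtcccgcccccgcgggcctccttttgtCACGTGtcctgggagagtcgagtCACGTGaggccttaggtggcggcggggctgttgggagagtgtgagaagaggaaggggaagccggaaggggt
Atg5: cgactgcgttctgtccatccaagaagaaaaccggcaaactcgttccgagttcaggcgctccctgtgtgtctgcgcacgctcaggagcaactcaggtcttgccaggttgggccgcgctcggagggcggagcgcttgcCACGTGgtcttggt
Bnip3: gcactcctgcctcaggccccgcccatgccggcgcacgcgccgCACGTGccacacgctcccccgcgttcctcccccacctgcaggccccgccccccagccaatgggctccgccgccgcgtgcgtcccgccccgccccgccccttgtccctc
Lamp1: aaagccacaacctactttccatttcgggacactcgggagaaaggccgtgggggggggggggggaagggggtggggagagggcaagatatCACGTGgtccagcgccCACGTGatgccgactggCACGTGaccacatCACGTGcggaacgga
The Lamp1 stretch held 4 copies, the Atg3 stretch 2, and those of Atg5 and Bnip3 held 1 each. The stretches of Tax1bp1 and Bcl2l13 held none, which says only that these letters are not in the window shown. A match is a string of letters, and no binding was measured.

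Of the 35 genes, Tfeb was too low to test. Of the 34 genes tested, 1 passed the threshold of 0.05 on limma's adjusted p: Map1lc3a, which encodes LC3A, was lower in KO. That is 2.94% of the genes tested, beside 3.28% of all 18762 genes tested (615 genes, of which 264 or 1.41% were lower and 351 or 1.87% higher in KO). The share was thus near the background. At an unadjusted limma p under 0.05 there were 6 genes (17.6%), beside 18.0% of all genes. The libraries of the groups did not overlap for 9 genes, 2 higher and 7 lower in KO (26.5%), beside 23.2% of all genes. The median log2 fold change was -0.01 over these genes and -0.01 over all genes, with 16 values above 0 and 18 below. Another scaling of the libraries, or removal of a trend over GC content and length, turned the sign of 12 of these values near 0: Bnip3, Bnip3l, Fundc1, Nbr1, Atg13, Becn1, Pik3c3, Atg4b, Atg5, Atg7, Atg12 and Gabarapl2.

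The count test of edgeR on the recovered reads called 3 of 33 genes (9.09%, beside 6.03% of 13078 genes), Bcl2l13 higher and Map1lc3a and Tax1bp1 lower in KO. DESeq2 called Map1lc3a and Tax1bp1, both lower, among the 32 genes to which it gave an adjusted p (6.25%, beside 6.84% of 12082 genes). The 95% interval of the fold change lay within 2-fold either way for 29 of the 34 genes and within 1.5-fold for 21. It reached past 2-fold for Pink1, Bcl2l13, Ulk2, Wipi1 and Gabarapl1.

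**Figure D1:**
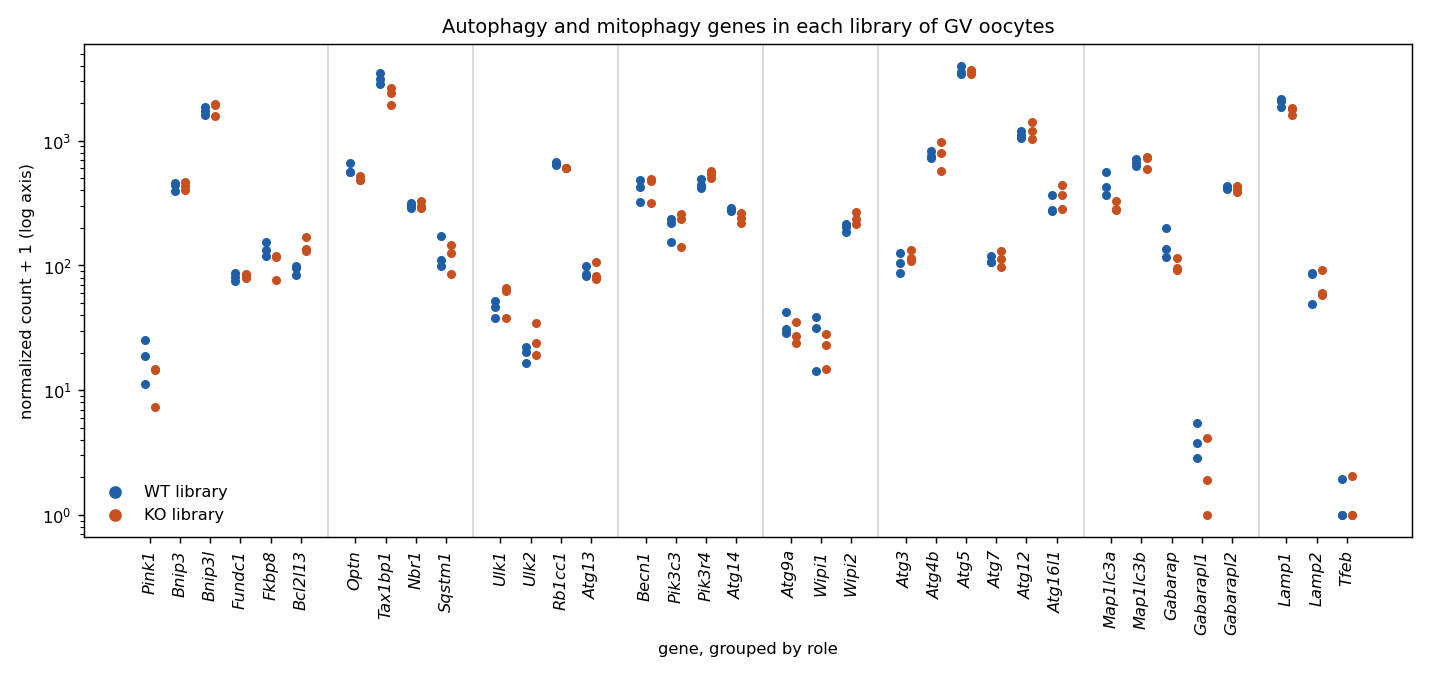
Normalized counts of the 35 genes in each library (value + 1 on a log axis), grouped by role from mitophagy receptors on the left to lysosome and TFEB on the right, with 3 WT libraries in blue and 3 KO libraries in orange. For most genes the colours overlap. The KO points lie below the WT points for Optn, Tax1bp1, Rb1cc1, Atg14, Map1lc3a, Gabarap and Lamp1 and above them for Bcl2l13 and Pik3r4.

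Per length of transcript, the most abundant of these genes in WT oocytes was Atg5, which encodes the acceptor of ATG12 in the conjugation system. It stood at 1549 normalized counts per kilobase, and its lowest WT library (1453) was above the highest of the next gene, Tax1bp1 (mean 962, highest 1061). Tax1bp1 and Lamp1 (914) overlapped each other and stood above Bnip3l (534) and Map1lc3a (406), whose ranges also overlapped. Map1lc3b (253), Gabarapl2 (251), Bnip3 (245), Atg12 (236) and Optn (227) formed a run in which each neighbour overlapped the next. Atg4b followed at 184 and Gabarap at 110.5, and the genes from Atg16l1 (97.3) down to Fundc1 (40.4) and Wipi2 (38.6) overlapped their neighbours apart from the step between Rb1cc1 (86.4) and Atg14 (75.1). The low end was held by Ulk1 (8.54), Wipi1 (8.17), Atg9a (7.78), Pink1 (7.31), Ulk2 (3.27), Gabarapl1 (1.66) and Tfeb (0.132). In normalized counts not divided by length, the median WT level of the 35 genes, with the untested Tfeb included, was 201. For all genes tested in the series it was 41.4. 5 genes stood above 1000 in WT.

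**Figure D2:**
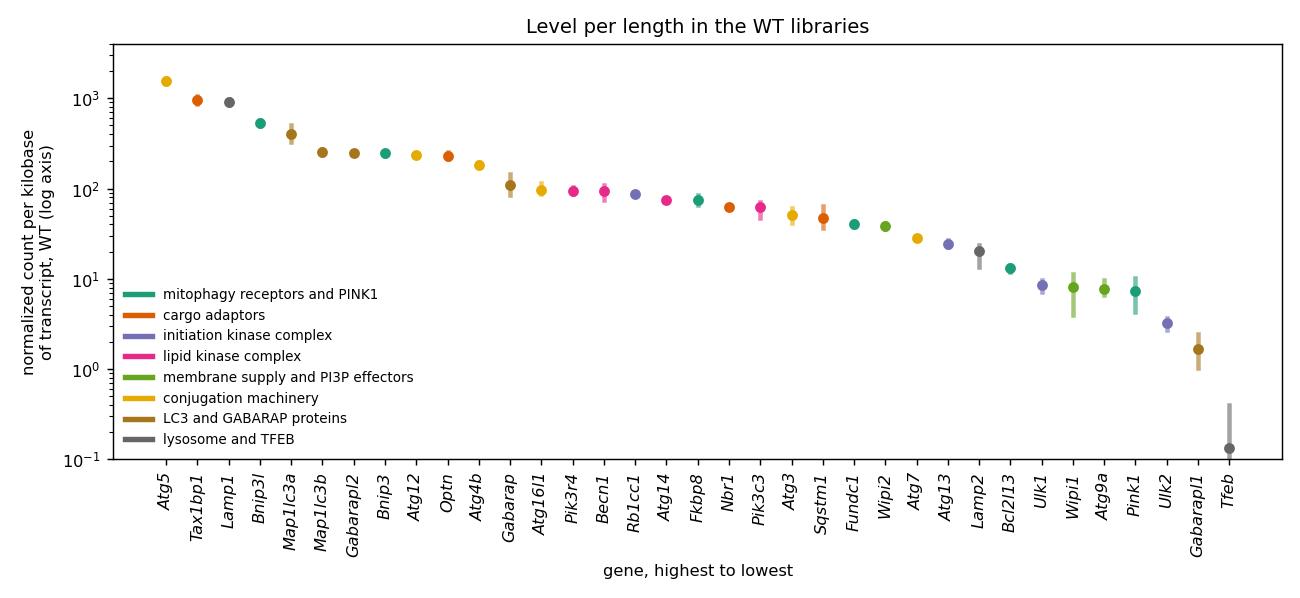
Level of each gene in the 3 WT libraries, in normalized counts per kilobase of transcript on a log axis, ordered from highest to lowest and coloured by role. Points are means and lines run from the lowest to the highest library. For Tfeb the lowest library is 0 and its line leaves the axis. Levels run from 1549 for Atg5 to 0.132 for Tfeb, and the receptors are spread from Bnip3l (534) to Pink1 (7.31).

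None of the 6 genes of the mitophagy receptor group passed limma's threshold. Their median log2 fold change was 0.01, with 4 values above 0 and 2 below, and those of Bnip3, Bnip3l and Fundc1 turned below 0 when the GC and length trend was removed. BCL2L13 is an outer membrane protein that binds LC3 and serves as a mitophagy receptor. Bcl2l13 (chromosome 6, 120836212 to 120892842, plus strand) stood at 97.6, 93.9 and 83.1 normalized counts in WT and 167, 129 and 136 in KO. Every KO library was above every WT library. The means were 91.5 ± 7.53 and 144 ± 20.3 (SD, n = 3 each), and the log2 fold change was 0.64 (SE 0.18, 95% interval 0.27 to 1.01) with a limma adjusted p of 0.0556, short of the threshold, and an edgeR adjusted p of 0.0421. Over all alternatives the adjusted p ranged from 0.0421 to 0.203. Windows of 75 bases along its transcript were shared with another gene in 8% of cases, all with Bid, which overlaps it on the other strand, and these libraries keep no strand.

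FKBP8 is an outer membrane chaperone that recruits LC3A. Fkbp8 (chromosome 8, 70527724 to 70535328, plus strand) stood at 153, 133 and 117 in WT and 116, 75.0 and 118 in KO. The groups overlapped, and the log2 fold change was -0.40 (SE 0.20, interval -0.83 to 0.02, limma adjusted p = 0.305). Fkbp8 lay below and Bcl2l13 above, so the receptors of smallest p had opposite signs.

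BNIP3 and its homologue NIX, encoded by Bnip3l, are receptors known from hypoxia and from the clearance of mitochondria during red cell maturation. Bnip3l was the most abundant receptor, at 1866, 1614 and 1742 in WT and 1584, 1947 and 1968 in KO, with a log2 fold change of 0.07 (SE 0.11, interval -0.17 to 0.31, limma adjusted p = 0.803). Bnip3 stood at 398, 454 and 438 in WT and 429.6, 467 and 399 in KO (log2 fold change 0.01, SE 0.12, interval -0.25 to 0.27, limma adjusted p = 0.988). Both differences were within the spread of the libraries, and both intervals exclude a change of 1.5-fold. Reads of both genes can be split with copies elsewhere, since 76.5% of the Bnip3 windows and 28.9% of the Bnip3l windows matched another gene, Bnip3l-ps in the latter case.

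FUNDC1 is a receptor whose binding to LC3 is set by phosphorylation. Fundc1 stood at 86.5, 80.0 and 73.9 in WT and 85.1, 78.2 and 79.1 in KO, a log2 fold change of 0.01 (SE 0.19, interval -0.39 to 0.42, limma adjusted p = 0.983). PINK1, the kinase that accumulates on damaged mitochondria, had few reads. Pink1 stood at 17.7, 24.2 and 10.2 in WT and 13.7, 13.7 and 6.29 in KO, the groups overlapped, and its interval (-1.51 to 0.35 around -0.58, SE 0.44, limma adjusted p = 0.542) holds values on both sides of 0 and reaches below a 2-fold fall.

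The 4 cargo adaptors, which link ubiquitin to LC3 and GABARAP, were all expressed and none passed limma's threshold. Their median log2 fold change was -0.17. Tax1bp1 (chromosome 6, 52713729 to 52766780, plus strand) was the most abundant of them, at 3126, 2872 and 3485 in WT and 1948, 2651 and 2428 in KO. No KO library reached the lowest WT library. The means were 3161 ± 308 and 2342 ± 359 (SD, n = 3 each), with a log2 fold change of -0.44 (SE 0.12, interval -0.70 to -0.18). The adjusted p was 0.0563 in limma, 0.0497 in edgeR and 0.0173 in DESeq2, and it ranged from 0.0162 to 0.237 over all alternatives.

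OPTN, or optineurin, is an adaptor known from PINK1-dependent mitophagy. Optn (chromosome 2, 5020642 to 5064051, minus strand) stood at 564, 657 and 556 in WT and 487, 522 and 483 in KO. The groups did not overlap, but the log2 fold change of -0.25 (SE 0.12, interval -0.50 to 0.00, limma adjusted p = 0.279) was not past the threshold. Nbr1, an adaptor also known for peroxisomes, averaged 303 ± 14.7 in WT, with 304 ± 20.5 in KO (each SD, n = 3). Sqstm1, which encodes p62 and is itself degraded by autophagy, averaged 126 ± 39.7 and 118 ± 30.4 with overlapping groups, and 20.2% of its windows were shared with Mrnip on the other strand.

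**Figure D3:**
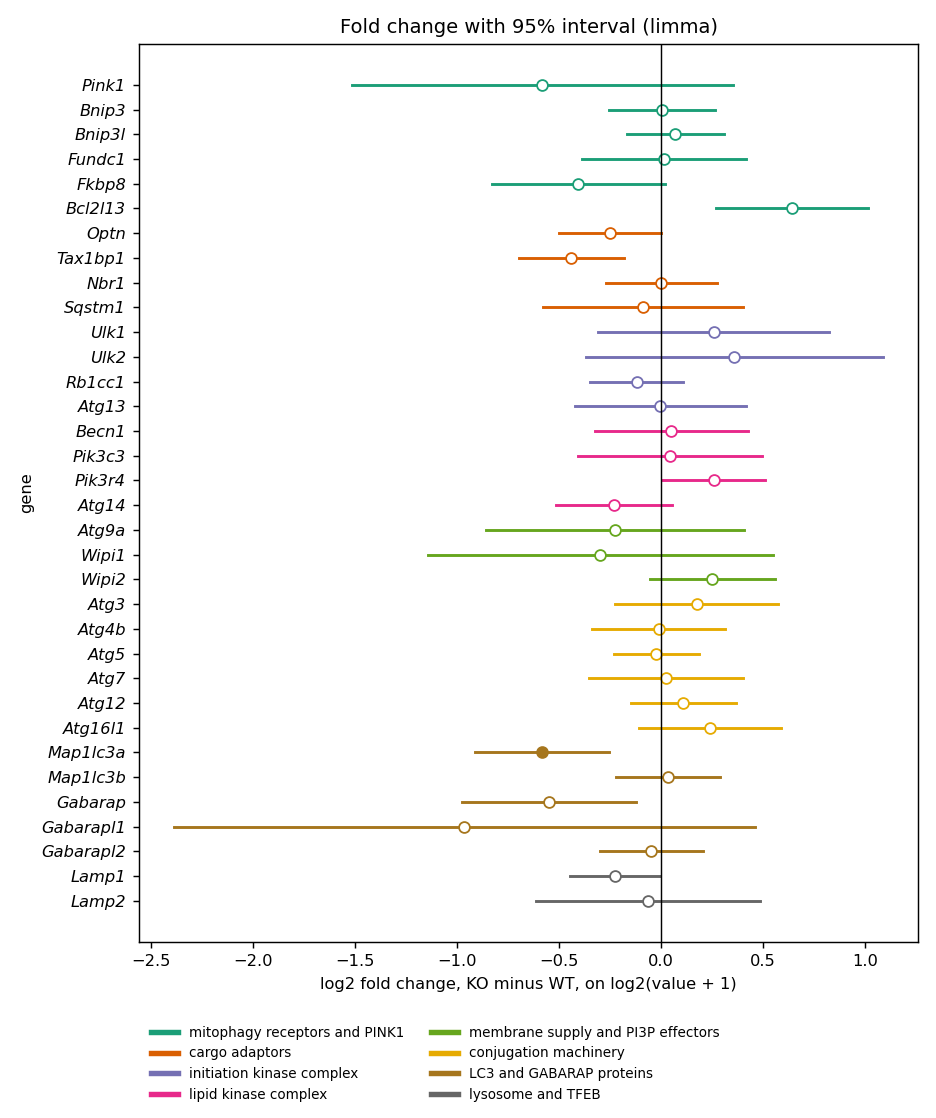
Log2 fold change (KO minus WT, on log2(value + 1)) of the 34 tested genes with its 95% limma interval, coloured by role. The filled point is Map1lc3a at -0.58, the gene past the adjusted threshold, and open points are the others. Bcl2l13 at 0.64 and Tax1bp1 at -0.44 have intervals that do not reach 0, and Gabarapl1 has the widest interval (-2.38 to 0.46).

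The initiation kinase complex consists of ULK1 or ULK2 with ATG13 and the scaffold FIP200, encoded by Rb1cc1. None of its 4 genes passed the test, and their median log2 fold change was 0.13. Rb1cc1 (chromosome 1, 6206197 to 6276648, plus strand) was the most abundant, at 673, 643 and 656 in WT and 605, 609 and 601 in KO. Both groups were tight and did not overlap, and the log2 fold change was small, -0.12 (SE 0.11, limma adjusted p = 0.622). Ulk2 (chromosome 11, 61775649 to 61855073, minus strand) was a gene of low level, at 15.5, 21.4 and 19.4 in WT and 23.1, 33.8 and 18.0 in KO, with overlapping groups (log2 fold change 0.36, SE 0.34, interval -0.37 to 1.09, limma adjusted p = 0.648). Ulk1 averaged 44.5 ± 7.10 in WT and 54.6 ± 15.3 in KO, and Atg13 averaged 87.7 ± 8.99 and 88.0 ± 15.8 (each SD, n = 3), both with overlapping groups.

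The lipid kinase complex, which makes PI3P, joins the catalytic subunit VPS34 (Pik3c3) and the pseudokinase VPS15 (Pik3r4) with Beclin 1 (Becn1) and ATG14, which directs it to autophagy. Again 0 of 4 passed, with a median of 0.05. Pik3r4 (chromosome 9, 105642978 to 105687657, plus strand) stood at 444, 419 and 492 in WT and 503, 542 and 575 in KO, every KO library above every WT library (log2 fold change 0.26, SE 0.12, interval 0.00 to 0.51, limma adjusted p = 0.269). Atg14 (chromosome 14, 47540893 to 47570649, minus strand) went the other way without overlap, at 289, 273 and 277 in WT and 239.5, 217 and 261 in KO (log2 fold change -0.23, SE 0.13, limma adjusted p = 0.392). Subunits of this complex thus differed in sign, and neither passed. Becn1 averaged 409.9 ± 80.4 and 428 ± 98.9, and Pik3c3 201 ± 43.0 and 211 ± 61.6 (SD, n = 3 each), with limma adjusted p of 0.918 and 0.942. Of the Becn1 windows, 43.0% were shared with Cntd1, which overlaps it on the other strand.

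Among the genes of membrane supply and PI3P reading, 0 of 3 passed and the groups of each overlapped. ATG9A is the scramblase carried on the vesicles that seed the autophagosome. Atg9a (chromosome 1, 75180860 to 75192196, minus strand) stood at 41.0, 29.8 and 27.7 in WT and 23.1, 26.4 and 34.2 in KO (log2 fold change -0.22, SE 0.30, limma adjusted p = 0.761), with 41.0% of its windows shared with other annotated genes. WIPI proteins bind PI3P, and WIPI2 recruits ATG16L1. Wipi2 (chromosome 5, 142627698 to 142670588, plus strand) stood at 201, 186 and 212 in WT and 236, 267 and 212 in KO (log2 fold change 0.25, SE 0.14, limma adjusted p = 0.387). Its relative Wipi1 was lower and more variable, with means of 27.3 ± 12.6 for WT and 20.9 ± 6.69 for KO (SD, n = 3 each).

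Of the conjugation machinery, 0 of 6 genes passed, the groups overlapped for each of them, and the log2 fold changes ran from -0.02 to 0.24. ATG7 is the E1-like enzyme, ATG3 the E2-like enzyme for LC3, ATG4B the protease that primes and recycles LC3, and the ATG12 to ATG5 conjugate with ATG16L1 acts like an E3. Atg16l1 (chromosome 1, 87755870 to 87792428, plus strand) stood at 365, 271 and 278 in WT and 438, 285 and 363 in KO (log2 fold change 0.24, SE 0.16, limma adjusted p = 0.483). Atg3 (chromosome 16, 45158785 to 45188538, plus strand) stood at 125, 85.6 and 104 in WT and 113, 133 and 107 in KO (log2 fold change 0.18, SE 0.19, limma adjusted p = 0.689). Atg5, the most abundant gene of all 35, stood at 3569, 3416 and 3946 in WT and 3457, 3677 and 3616 in KO, with a limma adjusted p of 0.939. The KO libraries of Atg5 lay within the WT range. Atg12 averaged 1122 ± 62.8 and 1220.5 ± 194, Atg4b 768 ± 47.1 and 779.6 ± 200.1, and Atg7 109.9 ± 6.61 and 113 ± 17.4 (SD, n = 3 each).

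LC3 and GABARAP proteins are the ubiquitin-like proteins that are coupled to lipid on the autophagosome and bind the receptors and adaptors above. Map1lc3a fell in KO oocytes, 4 of the 5 genes had log2 fold changes below 0, and the median was -0.55 beside -0.01 for all genes, or -0.33 beside -0.02 without WT replicate 1. Map1lc3a (chromosome 2, 155276297 to 155278073, plus strand) stood at 566, 421 and 367 normalized counts in WT and 278, 283 and 329 in KO. No library overlapped, the means were 451 ± 103 and 297 ± 28.0 (SD, n = 3 each), and the log2 fold change was -0.58 (SE 0.15, interval -0.91 to -0.26). The adjusted p was 0.0496 in limma, just under the threshold, 0.0396 in edgeR and 0.0157 in DESeq2. Leaving out any of the 6 libraries ended the limma call, with adjusted p from 0.0566 to 0.235 and the direction kept. The highest of these came without WT replicate 1, the library that was highest for Map1lc3a, where the log2 fold change was -0.41. After a trend over GC content and transcript length was taken out, it was -0.37 (limma adjusted p = 0.180).

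Gabarap (chromosome 11, 69991143 to 69994951, plus strand) encodes the founding member of the GABARAP branch, and stood at 197, 135 and 115 in WT and 91.4, 94.0 and 113 in KO. The groups did not overlap, though WT replicate 3 and KO replicate 3 were close, and the test was not passed (log2 fold change -0.55, SE 0.20, interval -0.98 to -0.12, limma adjusted p = 0.153). Without WT replicate 1, the value was -0.33 (limma adjusted p = 0.497, in a range of 0.115 to 0.497 over all alternatives). WT replicate 1 was the highest library for Map1lc3a and Gabarap and also for the granulosa and the theca and stroma lists given above. Cyp11a1, Lhcgr and Dcn of those lists and the oocyte gene Nlrp5 were called lower in KO like Map1lc3a. The other markers tested in these lists were not called, and several granulosa markers lay above 0. Among oocyte markers without a call, Zp1 (-0.61), Zp2 (-0.66) and Zp3 (-0.67) had values about as low as Map1lc3a. Gdf9, Bmp15, Figla and Nobox lay above 0. The part of other cells in these values was not tested. In such pools, fewer cells of a type and less RNA per cell cannot be told apart.

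For Map1lc3b and Gabarapl2 the KO values lay around those of WT. Map1lc3b, which encodes LC3B, stood at 661, 621 and 717 in WT and 593, 725 and 735 in KO (log2 fold change 0.03, SE 0.12, interval -0.22 to 0.29, limma adjusted p = 0.923). Gabarapl2, which encodes GATE-16, stood at 410.3, 418 and 434 in WT and 429.6, 409.9 and 384 in KO (log2 fold change -0.05, SE 0.12, interval -0.30 to 0.20, limma adjusted p = 0.885), and this sign turned to 0.01 with library total scaling. For both, the groups overlapped and the interval lay within 1.5-fold either way. Gabarapl1 had 4, 2 and 3 reads in WT and 0, 3 and 1 in KO, near the limit of 3 reads (log2 fold change -0.96, SE 0.67, interval -2.38 to 0.46, limma adjusted p = 0.497), so no difference was detectable at this depth.

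Set against the summed family per kilobase, Map1lc3a made up 44.1%, 39.3% and 34.8% in WT and 31.3%, 30.1% and 33.3% in KO. It was the largest share in each of the 3 WT libraries, while in KO Gabarapl2 was larger in replicate 1 (32.0%) and Map1lc3b in replicate 2 (32.6%). In normalized counts Map1lc3b was above Map1lc3a in every library, so this order rests on the transcript lengths used. Of the Gabarapl2 windows, 16.9% were shared with other annotated genes. The ratio of Map1lc3a to Map1lc3b in normalized counts, which no scaling of a whole library can move, was 0.856, 0.678 and 0.511 in WT and 0.469, 0.391 and 0.448 in KO. The ratios did not overlap between the groups, and the nearest were WT replicate 3 and KO replicate 1. They use the same Map1lc3a values as the call above and are not separate evidence for it. A trend over GC content or length can still move them, since the transcripts measure 1112 and 2633 bases. How many other gene pairs separate in this way was not counted. The ratio of Gabarap to Gabarapl2 was 0.481, 0.322 and 0.266 in WT and 0.213, 0.229 and 0.295 in KO, which did overlap.

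LAMP1 and LAMP2 are the main glycoproteins of the lysosomal membrane, and LAMP2A serves chaperone-mediated autophagy. Lamp1 (chromosome 8, 13159161 to 13175338, plus strand), the gene with 4 copies of CACGTG, stood at 2169, 1856 and 2084 in WT and 1619, 1816 and 1790.4 in KO, without overlap (log2 fold change -0.22, SE 0.10, interval -0.45 to -0.00, limma adjusted p = 0.271). Lamp2 (chromosome X, 38401357 to 38456454, minus strand) stood at 84.3, 48.4 and 85.9 in WT and 56.7, 90.9 and 59.4 in KO, with overlap (log2 fold change -0.06, SE 0.26, limma adjusted p = 0.932). Neither passed the test. Tfeb, the transcription factor of lysosomal genes, had 1 read in WT replicate 2, 1 in KO replicate 2 and 0 elsewhere, and was below the filter. None of the 6 genes with CACGTG passed limma's threshold, beside 3.28% of all genes tested. At that share, 6 genes are too few to tell anything about genes with these letters.

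The 112 other genes of the pathway that were listed and found in the table gave 109 tested genes. Of these, 3 (Wdr45b, Atg2b and Retreg2) rose in KO and 0 fell in limma, 2.75% beside the 3.28% above. At an unadjusted p under 0.05 there were 21 (19.3%, beside 18.0% of all genes). edgeR called 4 of 101, all higher (3.96%, beside 6.03%), and DESeq2 2 of 100, both higher (2%, beside 6.84%). For the 109 genes together, these shares were near or below those of all genes. The median was -0.00, with 54 values above 0 and 55 below. The 20 further genes of the core machinery held 2 of the 3 calls (10%, beside 3.28% of all genes). Of these 20 genes, 7 had an unadjusted limma p under 0.05 (35%, beside 18.0%). For 7 the groups did not overlap (35%, beside 23.2%). Their values lay above 0 for 14 genes and below for 6 (30%, beside 51.3%), with a median of 0.12. None passed among 22 mitophagy regulators, 12 fusion genes, 24 lysosomal genes and 22 genes of nutrient signalling, while 1 of 9 ER-phagy receptors did (11.1%, beside 3.28%). In the lysosomal list 17 of 24 values (70.8%) were below 0, with a median of -0.22, beside 51.3% of all genes. WT replicate 1 was the highest of the 6 libraries for 13 of these 24 genes (54.2%, beside 17% of all genes). Without it 14 were below 0 (58.3%, beside 51.8%) and the median was -0.09. Ctsl, which encodes the protease cathepsin L and was chosen as an example after its values were seen, stood at 183 in that library and 49.3 and 38.8 in the other WT libraries. In KO replicates 1 to 3 Ctsl stood at 28.4, 46.5 and 104, so KO libraries also differed widely (log2 fold change -0.44, SE 0.48, limma adjusted p = 0.691). Of the Ctsl windows, 27.9% were shared with other annotated genes.

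WIPI3, encoded by Wdr45b, is a PI3P reader related to WIPI1 and WIPI2 that works with the lipid transfer protein ATG2. Wdr45b (chromosome 11, 121327224 to 121354445, minus strand) stood at 20, 13.0 and 13.9 in WT and 32.6, 45.4 and 75.5 in KO (log2 fold change 1.59, SE 0.34, limma adjusted p = 0.0202, from 0.00443 to 0.131 over the alternatives). The groups did not overlap, and the highest KO library was over 2-fold the lowest. Wipi1 and Wipi2, described above, did not pass. Atg2b (chromosome 12, 105616136 to 105685211, minus strand), a lipid transfer gene, stood at 22.2, 26.0 and 17.5 in WT and 39.9, 58.1 and 49.5 in KO (log2 fold change 1.13, SE 0.29, limma adjusted p = 0.0429, from 0.0266 to 0.161).

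Its paralogue Atg2a (chromosome 19, 6241668 to 6262335, plus strand), named after its values were seen, stood at 49.9, 66.0 and 54.5 in WT and 97.7, 83.5 and 112 in KO and was called by edgeR (adjusted p = 0.0399) but not by limma (log2 fold change 0.77, SE 0.21, adjusted p = 0.0525, from 0.0370 to 0.185). Retreg2 (chromosome 1, 75142778 to 75147913, plus strand), of the family of reticulon-like ER-phagy receptors, stood at 8.87, 14.9 and 11.1 in WT and 24.2, 34.9 and 34.2 in KO (log2 fold change 1.36, SE 0.35, limma adjusted p = 0.0465, from 0.0326 to 0.163). All of these genes had KO libraries above WT libraries without overlap. Among the genes of the 6 libraries' filter, the calls of Wdr45b, Atg2b and Retreg2 held without KO replicate 1 (limma adjusted p = 0.00739, 0.0301 and 0.0372) and ended without any other library.

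**Figure D4:**
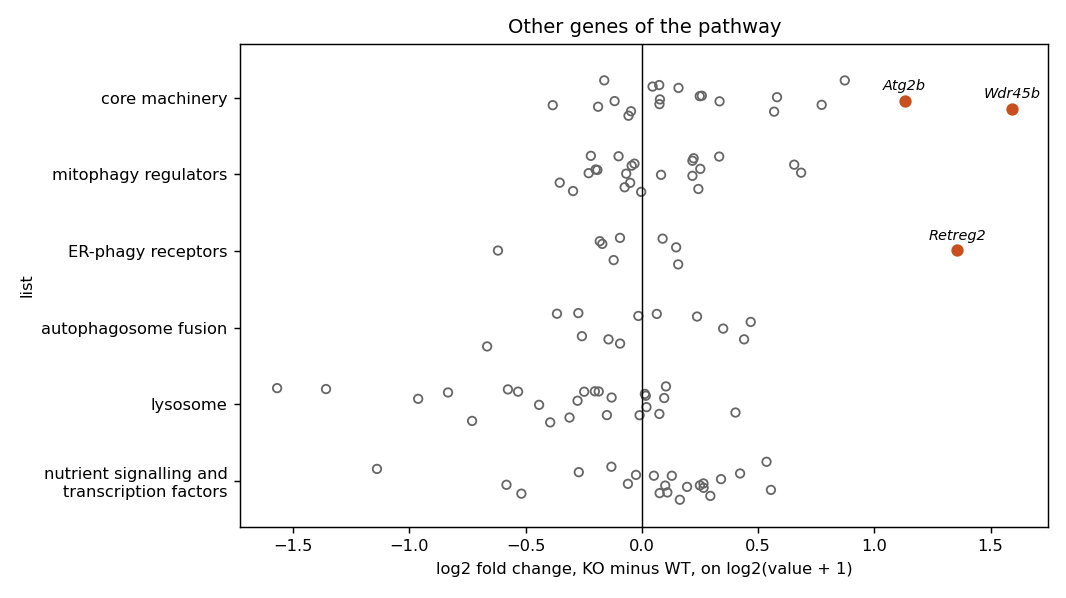
Log2 fold change (KO minus WT, on log2(value + 1)) of the 109 other pathway genes tested, by list, with points moved up or down within a list for legibility. Filled points are the 3 genes past the adjusted limma threshold, Wdr45b (1.59), Retreg2 (1.36) and Atg2b (1.13), and open points did not pass it. Most points lie close to 0, and 17 of the 24 points of the lysosome list (70.8%) lie below 0, beside 51.3% of all genes, or 14 of 24 when WT replicate 1 is left out.

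**Figure D5:**
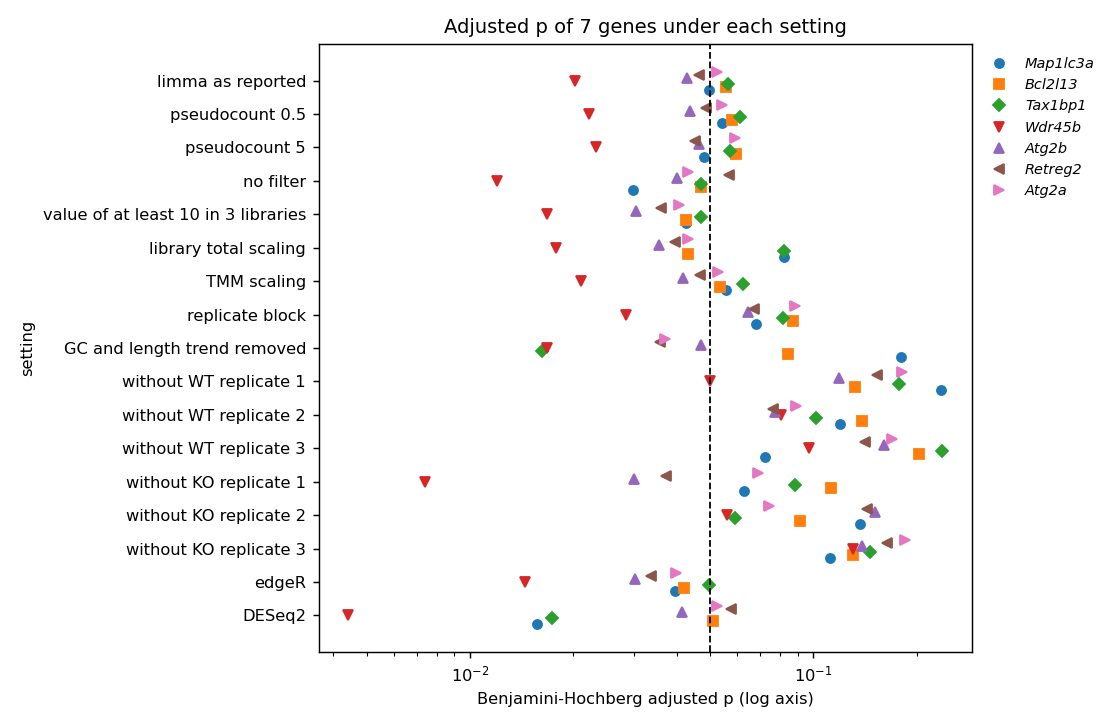
Benjamini-Hochberg adjusted p (log axis) of 7 genes in the test as reported and under each alternative, with the threshold of 0.05 as a dashed line. Map1lc3a, Bcl2l13 and Tax1bp1 lie close to the line in most settings and to its right whenever a library is left out, and Wdr45b lies left of it in the settings that keep all 6 libraries.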

How the data were processed

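RNA of 6 oocyte libraries was copied and amplified by Smart-Seq2, built into Nextera XT libraries and read as 75-base pairs, per the labels' protocols. This keeps neither strand nor molecular identifiers, so amplified reads are not independent molecules. The submitters' processing notes name STAR, cutadapt, FastQC, DESeq2 and DESeq, without versions, and the builds mm10 and GRCm38. Values are a signal that the authors made by dividing reads by size factors, and Partek and DESeq2 were used, per the file headers. Whole reads came back for 100% of values above 0 within 0.1 reads.

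The members and gene lists were chosen with earlier results of these data known. Groups come from the sample titles. The 18762 genes that reached a value of 1 in 3 or more libraries were tested on log2(value + 1) with limma-trend 3.58.1 in R 4.3.3, KO against WT, without covariates. P-values were Benjamini-Hochberg adjusted over all of these, with a threshold of 0.05. edgeR 4.0.16 and DESeq2 1.42.0 were run on the recovered reads as alternatives, beside other pseudocounts, filters and scalings, a replicate block, removal of a GC and length trend, and leaving out each library. On data simulated for KO against WT over 19237 genes, limma recovered 88% of genes changed by 1 on the log2 scale and 99% of those changed by 2. The changed genes averaged at least 20 reads, and all genes were given the same relative spread beyond counting error. These shares therefore do not cover genes of few reads such as Pink1 and Gabarapl1. Nor do they cover smaller changes, such as those of Map1lc3a, Bcl2l13 and Tax1bp1.

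All 35 members are named. Full values are given for Mfn1, Mfn2, every member past the threshold in limma or edgeR and the 2 of smallest p in each role, and for the whole receptor and LC3 and GABARAP groups. Of the other pathway genes, those past the threshold are named. Positions are those deposited, on GRCm38, printed to the base before the deposited end. Transcript lengths and shared windows (75 bases, at most 1 mismatch) were taken from GENCODE M21, to which 95.4% of symbols matched. Each gene was given its longest annotated transcript, a protein-coding one where present, which need not be the form used in oocytes.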

Additional observations from a re-analysis of the deposited data

How the results depend on the processing

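Of the fold changes of 29 named genes over 634 alternative fits, 544 kept both direction and side of the threshold, 50 lost the call, 14 gained it and 26 changed sign. A gene that was not called as reported and stayed uncalled counts as kept. Only Map1lc3a, Wdr45b, Atg2b, Retreg2 and Mfn2 were called as reported, so all 50 losses fell on fits of these genes. Genes higher in KO numbered 351 and genes lower 264 as reported. The replicate block gave 246 and 175. Deviations of same-numbered libraries from their group means had correlations of -0.0766, -0.0176 and -0.0357, beside -0.0482 to 0.0767 for libraries of different numbers. The labels do not say whether the numbers pair libraries. With 3 libraries per group, these correlations cannot settle whether same-numbered libraries share an animal or day. Under the block 0 of the 35 genes and 1 other pathway gene (Wdr45b) were called. Library total scaling gave 488 higher and 176 lower (73.5% higher, against 57.1% as reported) and removal of the GC and length trend 294 and 332 (47.0% higher). edgeR called 451 and 338 and DESeq2 449 and 378. Of the 35 genes, 1 (Bcl2l13) was called higher with no filter, with a filter of at least 10, with library total scaling and in edgeR. The number called lower was 0 with a pseudocount of 0.5, library total scaling or TMM scaling, and 2 with no filter, a filter of at least 10, edgeR or DESeq2. With the trend removed it was 1, Tax1bp1 in place of Map1lc3a. Of the other pathway genes, 1 was called lower with no filter (Vps41) and 1 with the trend removed (Uvrag). DESeq2 called 2 of them higher. Leaving out each library gave 39 to 459 genes higher and 30 to 430 lower, 0 of the 35 genes in either direction, and 0 to 3 other pathway genes higher and 0 to 3 lower, with most calls without KO replicate 1. That count includes refits with the filter applied again, an alternative chosen after seeing the data. The cause of these shifts was not tested. Near 0, signs turned: Bnip3 -0.069, Bnip3l -0.043 and Fundc1 -0.12 with the trend removed, and Gabarapl2 0.012 with library total scaling. Leaving out a library gave -0.051 to 0.061 for Bnip3, -0.042 to 0.070 for Fundc1, -0.021 to 0.13 for Map1lc3b and -0.33 to 0.076 for Lamp2. Depth limits Pink1, Ulk2, Wipi1, Gabarapl1 and Tfeb, where the interval reached past 2-fold or, for Tfeb, no test was made.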

Other observations

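Within other pairs of related genes, shares per kilobase overlapped between the groups. Bnip3l made up 71.6%, 65.7% and 68.2% of the sum of Bnip3 and Bnip3l in WT and 66.5%, 69.2% and 72.7% in KO, with the shared copies named above in both. Ulk1 made up 78.4%, 70.1% and 67.7% of the sum of Ulk1 and Ulk2 in WT and 74.7%, 54.6% and 79.9% in KO. Wipi2 made up 90.7%, 79.6% and 78.4% of the sum of Wipi1 and Wipi2 in WT and 87.4%, 92.6% and 83.5% in KO. The more abundant gene of each pair was the same in all 6 libraries. The ratio of Bcl2l13 to Bnip3l in normalized counts was 0.0523, 0.0582 and 0.0477 in WT and 0.105, 0.0662 and 0.0690 in KO, without overlap, and that of Tax1bp1 to Optn was 5.54, 4.37 and 6.27 in WT and 4.0, 5.08 and 5.03 in KO, with overlap. Both ratios use the same values as the fold changes above and are not separate evidence. Their genes were paired by hand within a role list, and how many other gene pairs separate in this way was not counted.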
